A study of Homo sapiens with 4 samples.

Results

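The genes examined are the expressed protein-coding genes of the long arm of chromosome 6 (6q) in OCI-AML3, an established human acute myeloid leukaemia cell line that carries the cytoplasmic NPM1 mutation (NPM1c+). A gene was a member if its GENCODE 29 start (GRCh38) lay above 61 Mb on chromosome 6 and its mean over the 4 libraries was at least 1 CPM (a gene's counts scaled to a fixed library size). Of 431 coding rows on the arm, 247 reached that level, 10 of these were left out by name, and 237 members remained, all of which entered the test. The whole table had 67062 rows, of which 15918 were tested. The mean level was therefore used to choose the members, and the arm was chosen with its shift known, so the shift itself is given below as a description with no test. At the level threshold, RAMACL (1.001 CPM), CCDC28A-AS1 (1.06 CPM) and ULBP1 (1.1 CPM) lay just inside, and KHDC1 (0.965 CPM), ENSG00000285976 (0.817 CPM) and GABRR2 (0.778 CPM) just outside. At the position threshold, the first members were FKBP1C, PHF3 and LMBRD1, with log2 fold changes of 0.08, 0.25 and 0.07, and the last genes before it were BAG2, RAB23 and PRIM2, with 0.30, 0.41 and 0.25.

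The cells had been infected with a retrovirus made from the pMSCV-PIG vector. In the PIG-LONA group the vector carried the full long non-coding RNA LONA behind an RNA polymerase II promoter, and in the PIG-EMPTY group it carried no insert. In both groups a PGK promoter drove puromycin resistance and, after an internal ribosome entry site, green fluorescent protein (GFP), and GFP-positive cells were sorted, so all libraries share the vector and the sort. Each group had 2 independent transductions of this 1 cell line, and p-values measure the spread between those. Total counts ran from 29819572 to 38358442 per library. The level of LONA is not reported here, so the vector labels were not checked against it. All 10 myeloid leukaemia markers examined were detected (CD33 98.4 to 104.5 CPM, ELANE 491.1 to 527.9 CPM, MPO only 2.1 to 2.79 CPM). CD3E, CD3D, MS4A1, HBB and EPCAM had no count in any library, and the endothelial and leukocyte gene PECAM1 was at 26.2 to 33 CPM.

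A chromosome arm gathers genes of unrelated function, each with its own promoter and regulators, and the subunits of one protein complex are usually encoded on many different chromosomes. The long arm of chromosome 6 holds, among others, genes for DNA replication, translation, the proteasome and signalling, and is known for recurrent deletions in lymphoid malignancies. Most broadly expressed genes have promoters rich in CpG, the dinucleotide of C followed by G that is depleted from most of the genome, whereas many tissue-restricted genes have promoters poor in it.

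Under every alternative run, 2 members departed above the rest of the arm and 6 below it. The promoters of 4 of these are printed, since departing members had promoters of both kinds. The 4 do not stand for all departing members. Each line gives the 250 bases before the RefSeq gene start (GRCh38.p14), 5′ to 3′ on the strand of the gene, with every CpG in capitals. PM20D2 lies on the plus strand (chr6:89145805-89146054), ROS1 on the minus strand (chr6:117425943-117426192), GJA1 on the plus strand (chr6:121435396-121435645) and IPCEF1 on the minus strand (chr6:154356804-154357053). GENCODE 29 places the starts of PM20D2 and GJA1 inside the printed stretch.
PM20D2: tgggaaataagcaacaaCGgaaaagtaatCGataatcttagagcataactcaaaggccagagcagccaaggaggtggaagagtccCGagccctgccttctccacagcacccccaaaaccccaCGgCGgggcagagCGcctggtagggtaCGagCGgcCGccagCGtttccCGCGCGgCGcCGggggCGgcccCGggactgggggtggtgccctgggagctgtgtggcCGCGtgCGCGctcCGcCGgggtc
ROS1: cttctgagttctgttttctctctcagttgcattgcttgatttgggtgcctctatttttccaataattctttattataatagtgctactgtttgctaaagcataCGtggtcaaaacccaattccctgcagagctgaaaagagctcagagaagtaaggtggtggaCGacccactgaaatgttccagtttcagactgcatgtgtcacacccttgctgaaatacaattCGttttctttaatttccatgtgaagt
GJA1: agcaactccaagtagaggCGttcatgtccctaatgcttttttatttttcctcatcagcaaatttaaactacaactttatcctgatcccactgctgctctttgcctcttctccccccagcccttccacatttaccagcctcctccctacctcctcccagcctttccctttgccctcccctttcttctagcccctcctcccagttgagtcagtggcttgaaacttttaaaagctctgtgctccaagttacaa
IPCEF1: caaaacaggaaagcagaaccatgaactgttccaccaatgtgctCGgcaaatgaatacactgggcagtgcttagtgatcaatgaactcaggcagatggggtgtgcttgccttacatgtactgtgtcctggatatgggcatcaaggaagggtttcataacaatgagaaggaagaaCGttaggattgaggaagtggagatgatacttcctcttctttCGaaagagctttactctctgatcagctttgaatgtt
The PM20D2 sequence holds 23 CpGs, those of ROS1 and IPCEF1 hold 3 each, and that of GJA1 holds 1. Over the full RefSeq window of 300 bases, which runs on past the start, the observed number of CpGs over the number expected from base composition was 0.882 for PM20D2, 0.25 for ROS1, 0.217 for GJA1 and 0.212 for IPCEF1.

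Genes of 6q were higher in PIG-LONA almost throughout, by a small and similar amount. The members' median log2 fold change (PIG-LONA over PIG-EMPTY) was 0.18, or 1.13-fold, with quartiles at 0.10 and 0.27, against a median of 0.001 over all tested genes. Of the 237 members, 210 lay above 0 and 27 below, 178 lay within 0.15 of the median, and 3 changed by more than 1.5-fold. The shift was seen in both transductions. Taking each gene's log2 CPM relative to its mean in PIG-EMPTY, the members' median was 0.022 in PIG-EMPTY replicate 1, -0.022 in PIG-EMPTY replicate 2, 0.155 in PIG-LONA replicate 1 and 0.196 in PIG-LONA replicate 2 (0 ± 0.031 against 0.176 ± 0.029, SD, n = 2). The libraries of the groups did not overlap, and the gap between them exceeded the spread within either. The arm was chosen with its shift known in these data, so this separation describes the shift and does not test it. The PIG-EMPTY values mirror each other because each gene is taken relative to the mean of those libraries. Of the members, 205 exceeded their PIG-EMPTY mean in PIG-LONA replicate 1 and 212 in replicate 2. Of all counts, the PIG-EMPTY libraries gave 2.09% and 2.04% to the members, and the PIG-LONA libraries gave them 2.24% and 2.3%. Without EEF1A1, which took the most counts of any member, these shares were 1.33%, 1.29%, 1.44% and 1.5%. In bulk RNA a small shift in all cells and a larger one in some of them cannot be told apart.

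**Figure D1:**
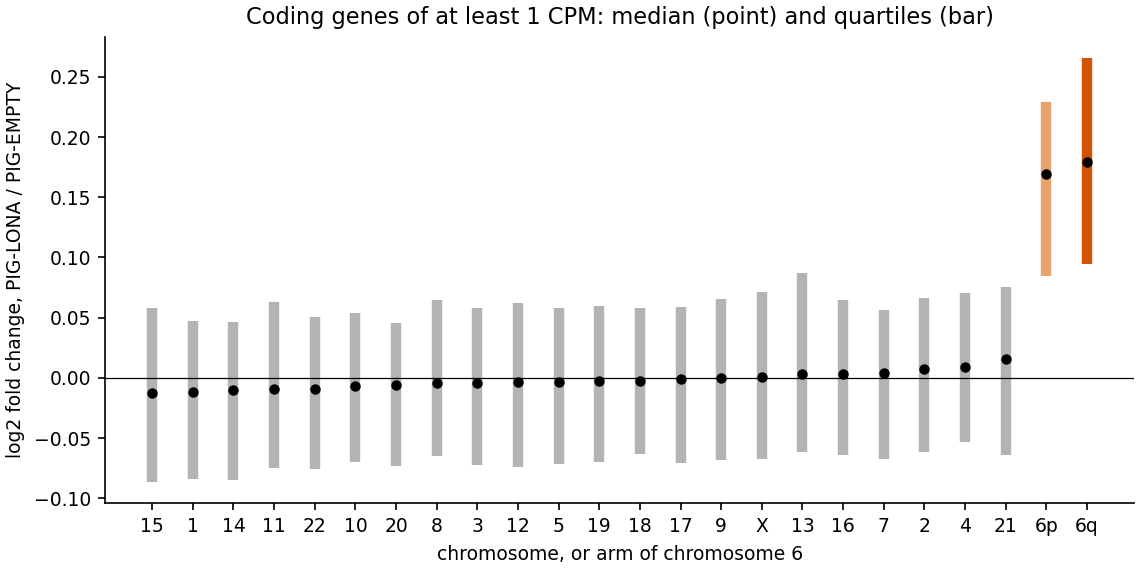
Median (point) and quartiles (bar) of the log2 fold change, PIG-LONA over PIG-EMPTY, for coding genes of at least 1 CPM on each chromosome, with the arms of chromosome 6 apart and the 10 genes left out by name included in 6q. The 22 other chromosomes have medians between -0.01 and 0.02, and both arms of chromosome 6 lie above them, at 0.17 for 6p and 0.18 for 6q.

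The short arm moved likewise. Under the same level rule, the 318 coding genes of 6p had a median of 0.17. The 10696 coding genes off chromosome 6, with 13 mitochondrial ones among them, had a median of -0.003. By chromosome, the 22 others had medians between -0.01 and 0.02. Features of 6q outside the rule were compared with the members. The 87 tested non-coding genes of the arm had a median of 0.17, with 63 above 0, and the 43 of them at 1 CPM or more had the same median. The 10 genes left out by name had a median of 0.16, from -0.19 for TNFAIP3 to 0.32 for KPNA5. The 19 tested coding genes under 1 CPM had a median of 0.02.

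By single genes, 97 of 237 members were higher in PIG-LONA and 3 were lower (edgeR's quasi-likelihood test with p adjusted over all tested genes by the Benjamini-Hochberg method, threshold 0.05). The 97 are 40.93% of the members, where 2.93% of all tested genes were higher, and the 3 are 1.266%, where 3.51% of all tested genes were lower. The other 137 did not pass. Both PIG-LONA libraries exceeded both PIG-EMPTY libraries for 181 members (76.37%, against 23.7% of all tested genes), both lay below for 9 (3.797%, against 24.4%), and the groups overlapped for 47. With either PIG-EMPTY library left out, which leaves 1 library in that group, fewer members were higher and fewer lower. DESeq2's Wald test called 51 members higher and 1 lower. Of all 15918 tested genes, the Wald test called 219 higher and 254 lower. The rises of the 97 members were small, from 0.14 to 0.67 on the log2 scale. Of the 97, 23 kept their call under each of the 14 alternatives that test them, among them SYNCRIP, PHIP, MDN1, CASP8AP2, ORC3, REV3L, FBXO5, EZR and PHF10. The share that passed differed by level while the median differed little. The 79 members with the lowest mean CPM had a median of 0.17 with 12.66% higher, the middle 79 had 0.19 with 48.1%, and the top 79 had 0.18 with 62.03%.

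**Figure D2:**
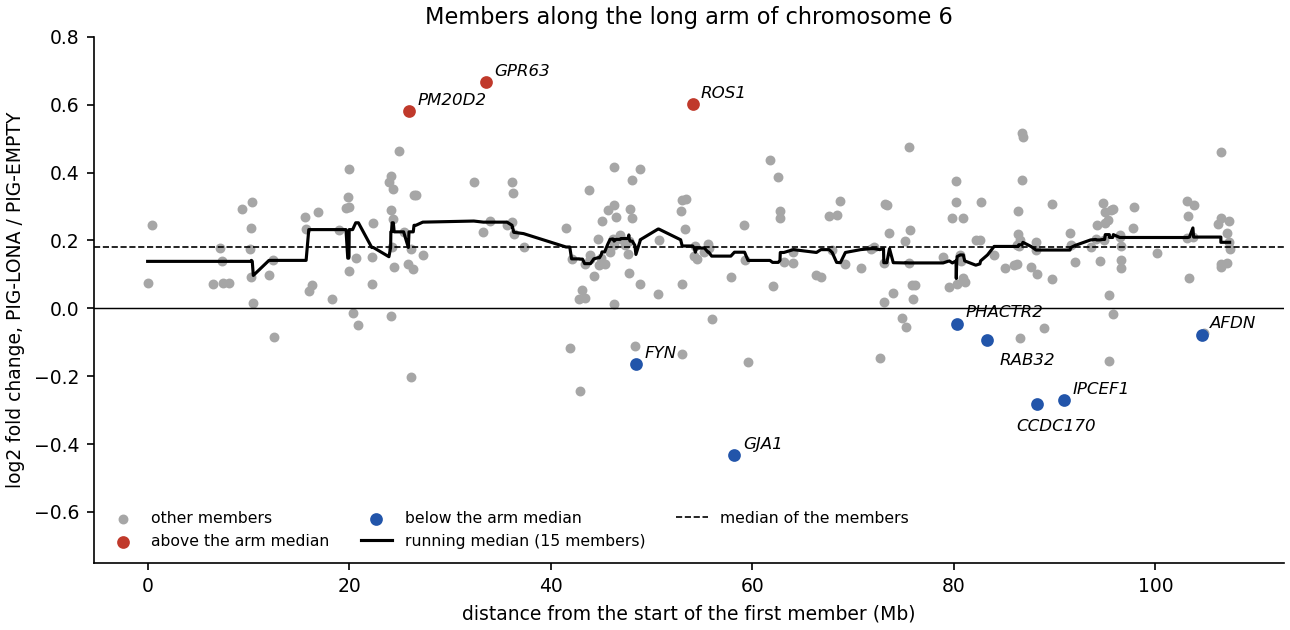
Log2 fold change, PIG-LONA over PIG-EMPTY, of 236 members by the distance of their start from the start of the first member. The running median over 15 neighbouring members (black line) stays above 0 along the whole arm, and the coloured members are 3 above and 7 below the arm median (dashed line) when only genes of the arm are given that median as their null value.

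The shift ran along the whole arm. The starts of the members spanned 107.4 Mb, and the running median over 15 neighbouring members stayed above 0 at all 237, from 0.09 around PEX3 to 0.26 around MANEA. In windows of 10 Mb, the median was lowest at 60 to 70 Mb (0.08, 3 members) and highest at 90 to 100 Mb (0.26, 10 members). In each of the 12 windows both PIG-LONA libraries lay above both PIG-EMPTY libraries. PIG-LONA replicate 2 lay above replicate 1 in 11 of the 12, the exception being the window of 3 members.

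All 10 members that start between 90 and 100 Mb were higher in PIG-LONA. They were MAP3K7, MANEA, UFL1, GPR63, MMS22L, FBXL4, COQ3, PNISR, USP45 and CCNC. The next window towards the centromere, 80 to 90 Mb, had a median of 0.23, with 14 of 31 members higher. Over both windows, which were chosen after their values were seen, the 41 members had a median of 0.25 (1.19-fold), and 24 of them (58.54%) were higher. The other 196 members had a median of 0.17 (1.13-fold), and 73 (37.24%) were higher. The order held when any one library was left out, with medians of 0.21 to 0.27 in this stretch and 0.15 to 0.19 elsewhere. No test of this difference was made. A second, lower rise lay at 160 to 170 Mb (0.22, 16 members), and the windows between 120 and 150 Mb had medians of 0.13 to 0.16.

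**Figure D3:**
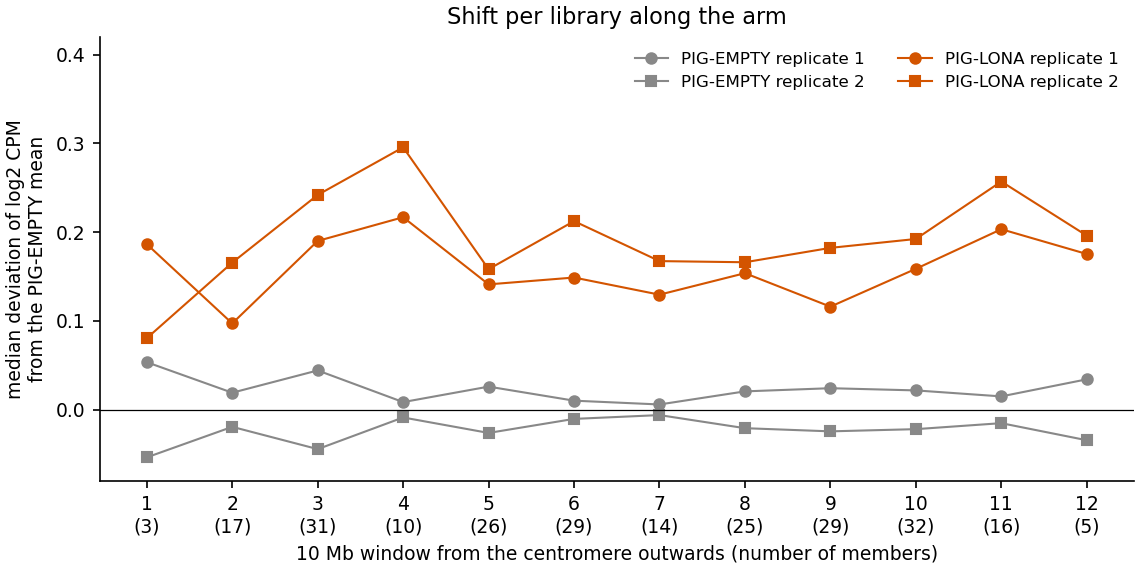
Median over the members of each 10 Mb window of the deviation of log2 CPM from the PIG-EMPTY mean, one line per library, with the number of members in brackets. Both PIG-LONA libraries lie above both PIG-EMPTY libraries in each of the 12 windows, between 0.08 and 0.30.

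Other properties of the members went with smaller differences. Members on the plus strand (112) had a median of 0.16, and those on the minus strand (125) 0.19. By transcript GC content, the lowest 79 had a median of 0.19 and the highest 79 one of 0.14. By exonic length, the shortest 79 had 0.17, the middle 79 had 0.15 and the longest 79 had 0.21. With the trend on GC content and length removed over all genes, the median of the members was 0.16. Of the members 101 were then higher, where 637 of all 15918 tested genes were. The reads of 53 members could be shared with another expressed gene that overlaps them. EEF1A1, FKBP1C and RAMACL have near-identical copies elsewhere in the genome, and how reads were divided among such copies is not given in the sources used here.

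The 6 members with the smallest p-values all rose; they were PM20D2, described further on, and EZR, PHF10, SYNCRIP, PNISR and CASP8AP2. EZR encodes ezrin, which links the plasma membrane to actin. The PIG-EMPTY libraries had 266.4 and 257.2 CPM and the PIG-LONA libraries 319.4 and 320.6 CPM, which is 0.29 ± 0.04 on the log2 scale (SE; edgeR adjusted p = 3.45e-05). PHF10, a subunit of the PBAF chromatin remodeller, went from 365.2 and 348.2 CPM to 425.7 and 431.2 CPM (0.26 ± 0.04, edgeR adjusted p = 8.48e-05). Neither gene's groups overlapped. PHF10 overlaps C6orf120 on the other strand, so part of its reads may be shared. SYNCRIP encodes an RNA-binding protein of the hnRNP family. Its values were 414.1 and 400.5 CPM against 471.4 and 498.3 CPM (0.25 ± 0.04, edgeR adjusted p = 0.000178). PNISR, a nuclear speckle protein gene with an antisense partner, had 249.1 and 250.3 CPM against 289.9 and 305.3 CPM (0.25 ± 0.04, edgeR adjusted p = 0.000183). CASP8AP2 encodes a protein needed for histone transcription in S phase, and had 74.7 and 72.7 CPM against 87.6 and 97.7 CPM (0.33 ± 0.05, edgeR adjusted p = 0.00023). In all of them both PIG-LONA libraries lay above both PIG-EMPTY libraries, as in 76.37% of all members and 23.7% of all tested genes. Genes that rose and were picked for the smallest p are nearly bound to show this.

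The members with the most counts included 3 with weaker shifts. EEF1A1, the translation elongation factor that brings aminoacyl-tRNA to the ribosome, had 7648 and 7456 CPM against 8078 and 8014 CPM, and did not pass (0.09 ± 0.03, edgeR adjusted p = 0.0921). CITED2, a co-regulator that binds CBP and p300, was at 0.07 ± 0.04 and OGFRL1 at 0.08 ± 0.04, and neither passed (edgeR adjusted p = 0.324 and 0.299). SYNCRIP is given above, and TCP1, a subunit of the TRiC chaperonin, rose with 551.5 and 519.5 CPM against 615.1 and 600.4 CPM (0.18 ± 0.04, edgeR adjusted p = 0.00311). TCP1 overlaps ACAT2, whose shift was 0.12.

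The members were also grouped by function, in lists that are not exclusive. Beside the counts of each list stand 40.93% of all members and 2.93% of all tested genes higher, and 1.266% and 3.51% lower. The share higher was 12.66% in the 79 members with the lowest mean CPM and 62.03% in the top 79. The part of level in the differing counts of the lists was not tested. Genes of the cell cycle, DNA replication and repair had the highest median, 0.24, and 12 of 18 were higher and 0 lower. They included TUBE1, epsilon-tubulin of the centriole (0.41 ± 0.07), REV3L, the catalytic subunit of translesion polymerase zeta (0.38 ± 0.07), ORC3 of the origin recognition complex (0.35 ± 0.06), FBXO5, the inhibitor EMI1 of the anaphase-promoting complex (0.31 ± 0.05), MMS22L, which acts at broken replication forks (0.26 ± 0.05), and cyclin C, CCNC (0.22 ± 0.05). REV3L overlaps an antisense gene, so its reads may be shared. Of 22 genes for RNA processing, ribosome assembly and translation, 13 were higher and 0 lower, with a median of 0.20. MDN1, the AAA ATPase that strips assembly factors from the large ribosomal subunit, rose by 0.33 ± 0.05, while the splicing regulator QKI, at 0.16 ± 0.05, did not pass. Among 20 transcription factor and chromatin genes, 12 were higher and 0 lower (median 0.20), including the histone deacetylase HDAC2 (0.20 ± 0.04), and BCLAF1, at 0.13 ± 0.04, did not pass. No set test was made, and all these medians lie near that of the members as a whole, 0.18.

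Of 13 genes of ubiquitin, chaperones and the proteasome, 7 were higher and 0 lower (median 0.20), with the deubiquitinase USP45 at 0.34 ± 0.06 and the ER-associated ubiquitin-conjugating enzyme UBE2J1 at 0.17 ± 0.04. Of 23 genes of mitochondria and metabolism, 11 were higher and 0 lower (median 0.16). AMD1, which makes the aminopropyl donor for polyamines, rose by 0.16 ± 0.04, as did ECHDC1, at 0.16 ± 0.04, whereas the mitochondrial ribosomal gene MRPL18 (0.14 ± 0.04) and the mitochondrial folate enzyme MTHFD1L (0.12 ± 0.04) did not pass. Of 22 genes of endosomes, lysosomes and the secretory pathway, 8 were higher and 0 lower (median 0.15), among them the sialomucin CD164 (0.20 ± 0.04), the sorting nexin SNX3 (0.15 ± 0.04) and SERINC1 (0.14 ± 0.04).

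Lower medians were found for genes of kinase signalling, the cytoskeleton and the cell surface. Of 12 kinase signalling genes, 4 were higher and 0 lower (median 0.14). MAP3K7, the kinase TAK1, rose by 0.16 ± 0.04, and its adaptor TAB2 (0.13 ± 0.04), SASH1 (0.12 ± 0.05) and MARCKS (0.04 ± 0.05) did not pass. Of 13 cytoskeletal genes, 4 were higher and 0 lower (median 0.10): EZR, EPB41L2 (0.27 ± 0.04), WASF1 (0.22 ± 0.05) and the actin-oxidising enzyme MICAL1 (0.19 ± 0.04). Of 13 immune and surface genes, only ULBP3, a ligand of the receptor NKG2D, was higher (0.50 ± 0.15, edgeR adjusted p = 0.044) and 0 were lower (median 0.05). It was at 4.49 CPM in PIG-EMPTY and 6.27 CPM in PIG-LONA on average. The ecto-nucleotidase NT5E (0.07 ± 0.05), the DNA sensor CGAS (0.17 ± 0.05), the interferon gamma receptor IFNGR1 (0.04 ± 0.06) and TAGAP (-0.02 ± 0.06) did not pass. The 87 members in none of the lists had a median of 0.18.

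Subunits encoded on 6q moved apart from the partners that they assemble with. In 37 complexes with 40 subunits on the arm, each of the 40 subunits lay above the median of its partners encoded off chromosome 6. The subunits had a median of 0.20, and 26 were higher, where 40.93% of all members were. The 149 partners had a median of 0.01. Of these, 5 were higher and 1 lower, where 2.93% and 3.51% of all tested genes were. The median difference was 0.19. The arm was chosen with its shift known, so most of its genes were bound to lie above genes off chromosome 6. The comparison therefore restates the shift and gives no result about complexes. The number of subunits above their partners was 39 when replicate 2 of either group was left out.

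**Figure D4:**
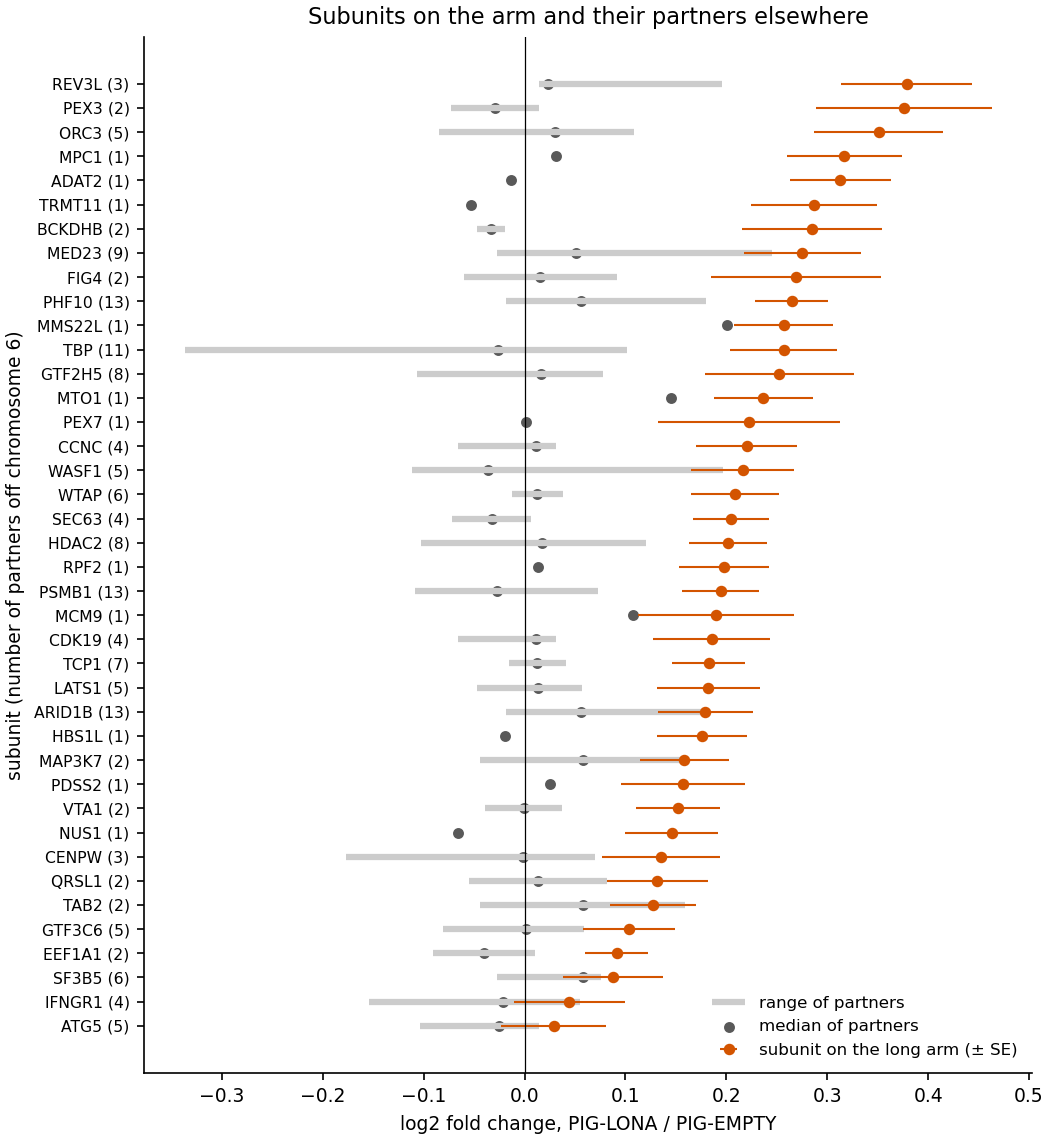
Log2 fold change, PIG-LONA over PIG-EMPTY, of each of the 40 subunits encoded on 6q (orange, ± SE) beside the median (dark point) and range (grey bar) of its partners encoded off chromosome 6. Every orange point lies to the right of its dark point, from REV3L at 0.38 to ATG5 at 0.03.

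In the TRiC chaperonin, which folds actin and tubulin, TCP1 was at 0.18 and its 7 partners at a median of 0.01, the highest of them at 0.04. PSMB1 of the 20S proteasome was at 0.19 and its 13 partners at -0.03. ORC3 was at 0.35 and the other 5 subunits of the origin recognition complex at 0.03. TBP, the TATA-binding protein, was at 0.26 and 11 other subunits of TFIID at -0.03. SEC63 of the ER translocon (0.20) and PEX3 of peroxisomal membrane import (0.38) had partners at a median of -0.03 each. Pairs with a single partner went the same way, such as the tRNA deaminase ADAT2 (0.31, partner -0.01), the mitochondrial pyruvate carrier MPC1 (0.32, partner 0.03) and RPF2 of ribosome assembly (0.20, partner 0.01). The smallest difference was for SF3B5 of the splicing factor SF3b, at 0.09 with partners at 0.06. MMS22L lay close to its partner (0.26 against 0.20), and ARID1B, MAP3K7, TAB2 and IFNGR1 each had 1 partner above them.

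To find genes that departed from the arm, the members' median was entered as the value to test against in place of 0. With that null value given to all genes, 18 members lay above the arm median and 22 below it (edgeR, Benjamini-Hochberg adjusted p under 0.05). The 18 are 7.595% of the members, where 0.603% of all tested genes lay above that median, and the 22 are 9.283%, where 45.8% of all tested genes lay below it. Since most genes elsewhere lie below that value, the adjustment is lenient. With the median as null for genes of the arm alone, a choice made after seeing the data, 3 members were above (1.266%; of all tested genes 2.19% were past their own null on that side) and 8 below (3.376%, against 3.42%). The arm median lies above 0, so a member above it is nearly bound to be higher against 0 too. All 18 members above were also higher in the plain test. Of the 22 below, 19 were neither higher nor lower in it, and 10 still had a log2 fold change above 0. Both counts, 18 and 22, fell with either PIG-EMPTY library left out and rose with PIG-LONA replicate 1 left out. Each of those fits leaves 1 library in a group. Among the 18, 10 start between 80 and 100 Mb, where 41 of the 237 members start. That stretch was chosen after its high values were seen, so members above the arm median were bound to be frequent there. With the null on the arm alone, 2 departing members start there. With the running median as reference 13 members were above and 18 below, where 91 and 7289 of all 15918 tested genes were. Among the 18 members that passed, the next farthest above after the 3 were CNR1, the cannabinoid receptor (0.46 ± 0.11), RNF217, a ubiquitin ligase (0.44 ± 0.10), TUBE1, NCOA7, a nuclear receptor coactivator (0.39 ± 0.08), REV3L, COQ3 of ubiquinone synthesis (0.37 ± 0.08) and MANEA, an endomannosidase (0.37 ± 0.06), and none of these passed with the null on the arm alone.

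PM20D2, GPR63 and ROS1 rose well past the arm. PM20D2 encodes a peptidase of carnosine-like dipeptides and lies at 89146050 to 89165565 on the plus strand. Its PIG-EMPTY libraries had 37.9 and 35.6 CPM and its PIG-LONA libraries 52.7 and 56.8 CPM, so that its log2 fold change, 0.58 ± 0.06 (SE), lay 0.40 above the arm median (edgeR adjusted p = 2.02e-05, and 0.000107 with the null on the arm alone). ROS1 encodes a receptor tyrosine kinase and lies at 117288300 to 117425855 on the minus strand. Its values were 7.35 and 7.08 CPM against 10 and 11.7 CPM, 0.42 above the arm median (edgeR adjusted p = 0.00329 and 0.0202). GPR63 encodes an orphan G protein-coupled receptor and lies at 96794126 to 96837463 on the minus strand. It had 4.2 and 4.25 CPM against 6.08 and 7.2 CPM, 0.49 above the arm median (edgeR adjusted p = 0.00598 and 0.036). The groups did not overlap for any of the 3. PM20D2 and ROS1 stayed past the test under each of the 17 alternatives, and GPR63 failed it without PIG-LONA replicate 2.

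**Figure D5:**
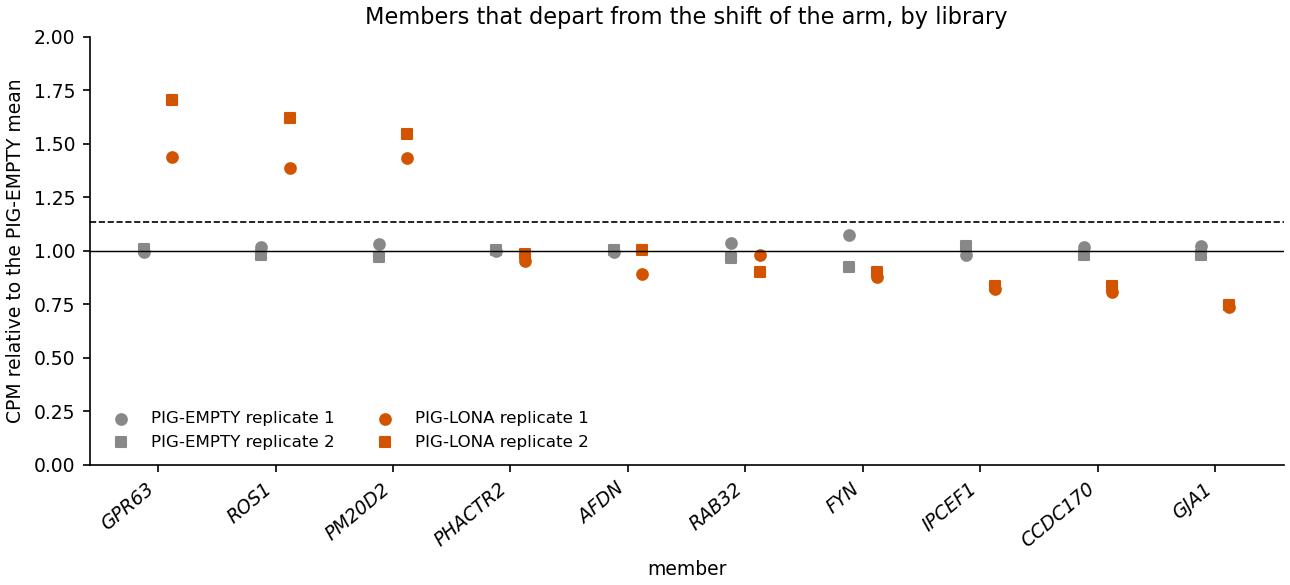
CPM of each library relative to the PIG-EMPTY mean for 10 members that depart from the arm when only genes of the arm are given its median as null, with the fold of the arm median, 1.13, as a dashed line. GPR63, ROS1 and PM20D2 lie above that line in both PIG-LONA libraries, and the other 7 lie below it in both.

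Against the direction of the arm, GJA1 and IPCEF1 were lower in PIG-LONA. GJA1 encodes connexin 43, a gap junction channel, and lies at 121435577 to 121449727 on the plus strand. It had 9.37 and 8.99 CPM in PIG-EMPTY against 6.75 and 6.84 CPM (-0.43 ± 0.10, edgeR adjusted p = 0.0139). IPCEF1 encodes a partner of the cytohesin exchange factors of ARF6 and lies at 154154496 to 154356792 on the minus strand. It had 37.4 and 39 CPM against 31.4 and 32 CPM (-0.27 ± 0.06, edgeR adjusted p = 0.00445). Their groups did not overlap. GJA1 missed the threshold with DESeq2's Wald test (-0.43), with no filter (-0.42), without PIG-EMPTY replicate 1 (-0.40) and at an adjusted p under 0.01. IPCEF1 missed it with no filter (-0.26) and without PIG-EMPTY replicate 2 (-0.24). Against the arm median both stayed past the test under each of the 17 alternatives.

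A further 5 below the arm did not pass the plain test and are set apart only from the arm. CCDC170, which encodes a coiled-coil protein of the Golgi microtubule network, was at 5.81 and 5.6 CPM against 4.61 and 4.76 CPM, 0.46 ± 0.13 under the arm median on the log2 scale (-0.46; edgeR adjusted p = 0.00654, and 0.0387 with the null on the arm alone). FYN, a SRC-family kinase, had 16 and 13.8 CPM against 13.1 and 13.4 CPM (difference from the arm median -0.34 ± 0.09). RAB32, a GTPase of lysosome-related organelles, had 38.9 and 36.3 CPM against 36.8 and 33.9 CPM (-0.27 ± 0.06). For CCDC170 and FYN both PIG-LONA libraries lay below both PIG-EMPTY libraries, by little for FYN, and those of RAB32 overlapped. AFDN, afadin of the adherens junction, had 121.1 and 122.4 CPM against 108.3 and 122 CPM (-0.26 ± 0.05), so that only PIG-LONA replicate 1 stood lower. PHACTR2, an actin and phosphatase regulator, had 24.5 and 24.5 CPM against 23.3 and 24.2 CPM (-0.22 ± 0.06). FYN failed the test against the arm without PIG-EMPTY replicate 1, and PHACTR2 without PIG-EMPTY replicate 2. BVES, a membrane protein of striated muscle, the myosin MYO6 and NHSL1 had log2 fold changes of -0.12, -0.09 and -0.05 and passed against the arm with the null given to all genes but not with the null on the arm alone; MYO6 and NHSL1 turned above 0 without PIG-LONA replicate 1, as did AFDN.

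A CpG-poor promoter was uncommon among the members. Of 210 members with a RefSeq promoter entry, the median observed over expected CpG was 0.875, against 0.579 over all 35116 promoters in the table. Under 0.3 were 11 members (5.238%), against 32.59% of all promoters. The 35116 promoters were not limited to expressed coding genes, as the members were. The contrast can therefore follow from the rule, and expressed coding genes elsewhere were not compared. These 11 ranged from -0.43 for GJA1 to 0.60 for ROS1, with a median of 0.09 and quartiles of -0.15 and 0.19. The other 199 had a median of 0.18 and quartiles of 0.11 and 0.27. Split evenly by observed over expected CpG, the members differed little. The lowest 70 had a median of 0.17, the middle 70 had 0.19 and the highest 70 had 0.18. Of the members that departed with the null on the arm alone, 10 had an entry, and 4 of these were under 0.3: GJA1, IPCEF1, PHACTR2 and ROS1. With the null given to all genes, 17 of the members above and 19 of those below had an entry. Their median observed over expected CpG was 0.903 and 0.831, against 0.867 for members that did not depart. The value of 0.3 was chosen after the data were seen. The CpG-poor members also had fewer reads, with a median of 9.2 CPM against 32.8 CPM, and the part of depth in their wider spread was not tested.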

How the data were processed

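Poly(A) RNA from 4 libraries was sequenced after a strand-marking library preparation, per the labels' protocols. The authors deposited 1 table of raw counts by gene. The submitters' processing notes list FastQC 0.11.4, STAR 2.5, HTSeq and hg38. Which gene annotation was counted, and with which strand option, is not given in the sources used here. Positions and gene types came from GENCODE 29. Counts were tested with edgeR 4.0.16 (R 4.3.3): filterByExpr (minimum count 10, minimum total 15), TMM scaling, quasi-likelihood fit with group alone, and Benjamini-Hochberg adjustment over 15918 genes at 0.05. The biological coefficient of variation was 2.953%. CPM values are counts over TMM-scaled library sizes or, for the threshold of 1, over totals. Departure was the same test with the members' median as offset in PIG-LONA. The scripts' tests were tried on simulated data. Alternatives used DESeq2 1.42.0, limma 3.58.1 and other filters, scalings, references and libraries. The members and lists were chosen with earlier results of these data known. Genes were named for distance from the arm median (10 each way), smallest p (6), most counts (5), most counts per list (4), complexes and thresholds; genes named beyond these were picked with their values seen. Genes are given by library, with log2 fold changes ± SE. Promoters came from RefSeq (GRCh38.p14). Some genes are not reported here, though counts over the members and over all genes include them.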

Additional observations from a re-analysis of the deposited data

How the results depend on the processing

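The members' median was 0.16 to 0.20 under every alternative, and the count of subunits above their partners 39 to 40. The counts of calls moved more. Higher members numbered 51 with DESeq2's Wald test, 34 with no filter, 56 at an adjusted p under 0.01, and 35 to 132 when a library was left out (35 with PIG-EMPTY replicate 2 left out, where 157 of all 16434 tested genes were higher, and 132 with PIG-LONA replicate 1 left out, where 1222 of 16726 were). Lower members numbered 1, 0, 1 and 1 to 4 in the same order, members above the arm median 6, 5, 3 and 5 to 36, and members below it 11, 11, 8 and 10 to 27. With no filter, 29600 genes entered the adjustment, of which 140 were higher, 194 lower, 41 above the arm median and 5646 below it. By the Wald test these numbers were 219, 254, 31 and 4982 of all 15918 tested genes. At an adjusted p under 0.01 they were 228, 300, 29 and 5084 of 15918. Members above and below numbered 12 and 14 with the members' median removed in each library, where 84 and 6499 of all 15918 genes were. They numbered 3 and 8 with the shift as null only on the arm, where 349 and 544 of all genes passed. A replicate block gave 100 higher, 3 lower, 20 above and 25 below, where 498, 603, 103 and 7559 of all 15918 tested genes were. The replicate numbers are not shown to pair libraries (correlation of deviations 0.085 over 11292 genes). Among the genes chosen by the naming rules, some changed sign with a library left out. They were MYO6 (-0.26 to 0.044), AFDN (-0.17 to 0.00396), NHSL1 (-0.16 to 0.034), TAGAP (-0.066 to 0.026), MARCKS (-0.032 to 0.12), ATG5 (-0.018 to 0.077), RAMACL (-0.17 to 0.36) and FKBP1C (-0.028 to 0.2). Other members are not given. None of the genes listed had a call in the plain test. The cause was not tested. Of the 79 members with the lowest mean CPM, 12.66% were higher, and the part of depth in that was not tested.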
